A study of Mus musculus with 1 sample.

Results

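RNA of platelet genes was found in 72 of the 1600 cell barcodes called in a blood T-cell library of a mouse with small cell lung cancer (SCLC). A barcode marks the RNA of 1 droplet. It was called when it held at least 1331 UMIs (unique molecular identifiers, each counting 1 captured RNA molecule), and it was counted here when at least 3 of these UMIs came from Pf4, Ppbp, Gp9 and Itga2b together. These 72, called platelet RNA barcodes here after the genes that chose them, made up 4.5% of the called barcodes. In 4 of them the label did not hold, since Itga2b was their only rule gene and they carried basophil markers. The barcodes were thus chosen by the UMI counts of these 4 genes and by total UMIs, and they were divided by the T-cell receptor signalling chains Cd3d, Cd3e and Cd3g: 49 held at least 1 CD3 UMI and 23 held none. Among the other 1528 called barcodes, 1296 held CD3 RNA and 232 did not.

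The series asked how PD-1 blockade combined with ERBB2 inhibition shapes circulating T cells in SCLC, and the data analysed here are those of 1 vehicle-treated mouse. In this autochthonous model, Rb1 and Trp53 were deleted conditionally in the lung by an adenovirus carrying Cre recombinase given through the trachea. Tumours thereby arise in immunocompetent C57BL/6 mice. The vehicle was phosphate-buffered saline, given every 3 days. Blood (150 µl) was collected with heparin, red cells were lysed, and T cells were enriched by removing other leukocytes with an antibody cocktail, after which gene expression and T-cell receptor (TCR) libraries were made from the same droplets. The sex and age of the mouse were not given in the sources used here, and the combination-treated mouse was not analysed here. With 1 mouse and 1 library there was no replicate and therefore no test. Intervals in parentheses are exact 95% Poisson intervals for UMI sums and exact 95% binomial intervals for shares, and they cover counting error only.

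Platelets are small fragments shed by megakaryocytes. They have no nucleus, carry RNA inherited from the megakaryocyte, and circulate to seal damaged vessels. Activated platelets also bind leukocytes, mainly through P-selectin on the platelet and its ligand PSGL-1 on the leukocyte, so that blood can hold conjugates of both.

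The 4 genes that chose the barcodes encode parts of the platelet's granules and surface. Pf4 and Ppbp are chemokines stored in alpha granules, Gp9 is a subunit of the von Willebrand factor receptor, and Itga2b is the alpha chain of the fibrinogen receptor. Pf4 (chr5:90772435-90773383) and Ppbp (chr5:90768518-90770063) are neighbours on GRCm38.p6, Gp9 lies at chr6:87776131-87779786 and Itga2b at chr11:102453297-102469883. The 250 bases before a transcript start of each are shown because the choice of barcodes rests on these genes. In Gp9 that start lies inside the span of the gene. They are from RefSeq (GRCm38.p6), given 5′ to 3′ on the strand of the gene, at chr5:90772185-90772434 (+), chr5:90768268-90768517 (+), chr6:87777820-87778069 (+) and chr11:102469884-102470133 (-), and capitals mark the letters GATAA, the core bound by GATA factors, and GGAAG, a core bound by ETS factors, on either strand:
Pf4: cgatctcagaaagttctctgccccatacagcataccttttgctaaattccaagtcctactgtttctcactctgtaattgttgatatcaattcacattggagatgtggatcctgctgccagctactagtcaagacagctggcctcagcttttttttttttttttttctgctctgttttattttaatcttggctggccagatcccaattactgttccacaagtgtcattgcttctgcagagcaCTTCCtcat
Ppbp: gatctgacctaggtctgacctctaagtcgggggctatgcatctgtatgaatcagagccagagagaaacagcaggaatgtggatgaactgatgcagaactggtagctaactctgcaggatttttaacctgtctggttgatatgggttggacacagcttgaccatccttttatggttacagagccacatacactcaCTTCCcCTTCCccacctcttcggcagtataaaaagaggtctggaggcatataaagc
Gp9: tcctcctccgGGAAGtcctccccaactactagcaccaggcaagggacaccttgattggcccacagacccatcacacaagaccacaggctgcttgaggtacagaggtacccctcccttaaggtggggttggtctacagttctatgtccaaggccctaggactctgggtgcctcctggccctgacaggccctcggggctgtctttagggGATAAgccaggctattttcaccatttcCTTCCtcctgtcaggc
Itga2b: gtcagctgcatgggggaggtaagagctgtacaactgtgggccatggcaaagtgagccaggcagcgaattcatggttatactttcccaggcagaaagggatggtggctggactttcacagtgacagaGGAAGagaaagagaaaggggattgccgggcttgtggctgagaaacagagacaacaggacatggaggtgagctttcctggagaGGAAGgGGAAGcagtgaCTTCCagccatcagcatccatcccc
All of these windows held GGAAG or its reverse complement CTTCC, 1 time in Pf4, 2 times in Ppbp and in Gp9 and 4 times in Itga2b. GATAA was found once, in Gp9. Of 32851 RefSeq promoter windows of the same length, 64.1% held GGAAG and 22.6% held GATAA on either strand, so that the first match was common to most genes.

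The platelet RNA barcodes fell far apart in how much platelet RNA they held. Their rule-gene UMIs ranged from 3 to 101 with a median of 6.5, and 29 barcodes held 10 or more while 27 held 3 to 5. In the 49 barcodes with CD3, the lowest value was 3, the median 6 and the highest 43 rule-gene UMIs. In the 23 without CD3, the lowest was 3, the median 28 and the highest 101. The ranges overlapped, but the 7 highest values were all in barcodes without CD3. Since these values chose the barcodes, they are a description. At the edge of the rule, 13 barcodes held exactly 3 rule-gene UMIs, of which 12 had CD3, and 37 called barcodes held 2 and were left out, of which 32 had CD3. A further 108 called barcodes held 1 rule-gene UMI and 1383 held none.

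**Figure D1:**
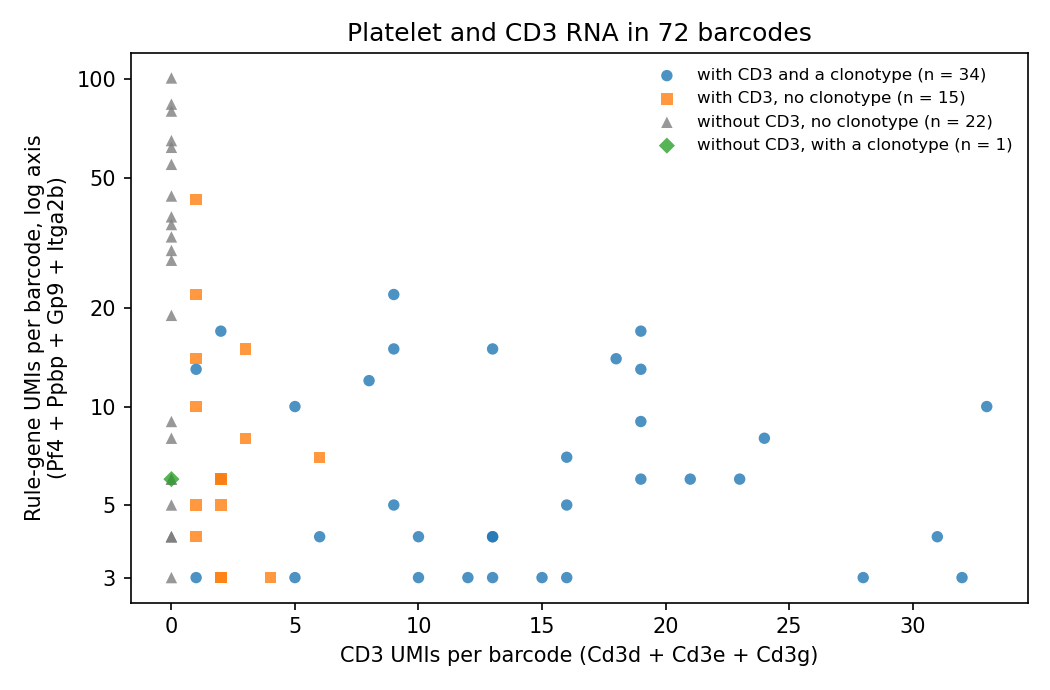
Rule-gene UMIs (Pf4, Ppbp, Gp9 and Itga2b, log axis) against CD3 UMIs (Cd3d, Cd3e and Cd3g) in each of the 72 platelet RNA barcodes, 1 symbol per barcode with some overlying each other, marked by CD3 and by a TCR clonotype. The barcodes without CD3 reach 101 rule-gene UMIs, whereas those with a clonotype lie between 3 and 22 and spread over 0 to 33 CD3 UMIs.

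The CD3-positive platelet RNA barcodes carried a TCR clonotype about as often as other CD3-positive barcodes did. The TCR library was read separately and was not used by the rule. A clonotype was assigned to 34 of 49 platelet RNA barcodes with CD3 (69.4%, 54.6% to 81.7%) and to 920 of 1296 other barcodes with CD3 (71.0%, 68.4% to 73.4%). The intervals overlapped, and the first is wide enough that a moderate difference was not detectable with 49 barcodes. Without CD3, a clonotype was found in 1 of 23 platelet RNA barcodes (4.35%, 0.11% to 21.9%) and in 9 of 232 others (3.88%, 1.79% to 7.24%).

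Depth moved with the clonotype share, so shares were also compared within bands of total UMIs. From 1331 to 2999 UMIs, 3 of 10 platelet RNA barcodes with CD3 had a clonotype, against 159 of 362 others (43.9%). From 3000 to 5999 UMIs the numbers were 17 of 24 (70.8%) and 377 of 525 (71.8%), and from 6000 UMIs upwards 14 of 15 (93.3%) and 384 of 409 (93.9%). The upper bands gave nearly equal shares, and in the lowest band the interval for the platelet RNA barcodes, 6.67% to 65.2%, covered the share of the others.

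The receptor chains of these barcodes were also much like those of other clonotyped barcodes. Both an alpha and a beta chain were assembled in 30 of 34 (88.2%, 72.5% to 96.7%) against 727 of 920 (79.0%, 76.2% to 81.6%). Each group had a median of 8 UMIs per beta-chain contig. More than 1 beta chain was present in 1 of 34 (2.94%, 0.0744% to 15.3%) and in 35 of 920 (3.80%, 2.66% to 5.25%). Scrublet, which predicts doublets from simulated mixtures of the called barcodes, marked 10 of 1600 barcodes and none of the 72. Droplets in which a cell and a platelet were attached to each other and droplets that took up both separately cannot be told apart in these counts.

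The 35 clonotyped platelet RNA barcodes belonged to 35 different clonotypes. All but 2 of these clonotypes were seen in a single barcode of the library. The beta-chain CDR3, the stretch that meets the antigen, is shown for the other 2 because they allow barcodes of the same clone with and without platelet RNA to be compared. The sequences are from the deposited contigs, with capitals marking the codons of the conserved cysteine at the start and phenylalanine at the end:
Clonotype 1 (TRBV12-2, TRBJ1-6): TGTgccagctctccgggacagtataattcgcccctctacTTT
Clonotype 17 (TRBV5, TRBJ2-7): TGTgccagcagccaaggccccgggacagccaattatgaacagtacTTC
Clonotype 1 was found in 9 barcodes, all with this CDR3. One of them held 15 rule-gene UMIs (1 Pf4, 7 Ppbp, 4 Gp9 and 3 Itga2b) and 4 UMIs of the platelet tubulin Tubb1 at 5410 total UMIs, and the other 8 held 0 rule-gene and 0 Tubb1 UMIs at 3661 to 6616 total UMIs. Platelet genes outside the rule gave 142 UMIs per 10000 in the first and 23.1 to 62.8 in the other 8. Clonotype 17 was found in 2 barcodes: one held 6 rule-gene UMIs and 119 outside-rule UMIs per 10000, the other 0 and 45.0. In both clones rule-gene RNA was present in 1 barcode and not detected in the others of the clone. The rule chose the first barcode of each clone by these UMIs, and 1383 of all 1600 called barcodes held none. The contrast in rule-gene UMIs is therefore a description.

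The label was checked with 58 platelet and megakaryocyte genes that the rule did not use, grouped as adhesion receptors, granule and surface proteins, cytoskeleton, signalling and megakaryocyte transcription factors. Together they took 92.1 UMIs per 10000 (88.5 to 95.9) in platelet RNA barcodes with CD3 and 27.4 (27.0 to 27.8) in other barcodes with CD3. Without CD3 they took 451 per 10000 (435 to 468) against 44.0 (42.6 to 45.5). In the other CD3-positive barcodes the list was led by Srgn, Bin2, Runx1 and Fli1, and the part of free RNA in that level was not tested. The list was far above the other barcodes when pooled, but not at the edge of the rule. The 13 barcodes with exactly 3 rule-gene UMIs took 40.2 per 10000 (35.9 to 44.95) and the 14 with 4 or 5 took 66.3 (60.5 to 72.6), against 45.2 (42.3 to 48.3) in the 37 left out with 2 and 32.7 (31.3 to 34.3) in the 108 with 1. The summed list therefore did not set barcodes with 3 rule-gene UMIs apart from those with 2. Tubb1 alone was found in 6 of the 13 and in 4 of the 37.

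Tubb1, the beta-tubulin of the marginal band that gives platelets their disc shape, was not used by the rule. It was detected in 26 of 49 platelet RNA barcodes with CD3 (0 to 26 UMIs, median 1) and in 10 of 1296 others (at most 2 UMIs), which is 3.70 against 0.019 UMIs per 10000 and a 194-fold difference (109 to 379). Of the 23 without CD3, 18 held Tubb1 (0 to 39 UMIs, median 11), and none of the 232 others did. The pooled level was thereby at least 1059-fold higher, taking 3 counts over the group as the limit for the other barcodes. After every barcode was thinned to 1331 UMIs, Tubb1 was found in 18 of 49 (36.7%) against 5 of 1296 (0.386%) with CD3 and in 17 of 23 (73.9%) against none of 232 without.

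Compared with other CD3-positive barcodes, those with platelet RNA were higher in platelet genes, and none of 16 T-cell genes was 2-fold apart. Pooled UMIs per 10000 were compared for 10366 genes with at least 20 UMIs in both groups together, and a gene was called higher or lower when the ratio was at least 2-fold, which is a limit of size and not a test. Of the 58 platelet genes outside the rule, 37 reached 20 UMIs. Of these, 26 were at least 2-fold higher and 1 was at least 2-fold lower, whereas 6.61% of all genes were at least 2-fold higher and 6.67% at least 2-fold lower. The median ratio was 5.17 for the platelet genes and 1.01 for all genes. Because some platelet genes reached 20 UMIs only through the barcodes in which they are high, these counts are a description.

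All 6 adhesion receptor genes with enough UMIs were higher. Clec1b, the podoplanin receptor, gave 74 UMIs in 23 of 49 barcodes against 29 UMIs in 24 of 1296 (67.2-fold, 43.2 to 107). Gp1bb and Gp5, partners of Gp9 in the von Willebrand factor receptor, were 48.6-fold (23.8 to 104) and 96.6-fold (38.0 to 291) higher. Itgb3, the partner chain of Itga2b that other cells also use, was 2.99-fold higher (1.99 to 4.35). The ratios of Clec1b, Gp1bb and Gp5 were thus at least an order of magnitude above that of Itgb3. A single barcode without Malat1 UMIs, described further down, added much to some of them. Without it and a haemoglobin-rich barcode that also had no Malat1, Clec1b was 42.9-fold higher (26.4 to 70.8) and Gp5 63.1-fold (22.8 to 200.2). In the 47 barcodes left, 25 of 36 platelet genes were at least 2-fold higher, and Rgs18, a regulator of G-protein signalling, was the only other one whose ratio moved by over 1.5 times, from 37.3 to 24.8.

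Among granule and surface proteins, 5 of 8 were at least 2-fold higher. Thbs1, a matrix glycoprotein released from alpha granules, was 111-fold higher (54.6 to 247) and Treml1, a receptor stored in the same granules, 66.9-fold (34.3 to 138). Nrgn, a calmodulin-binding protein abundant in platelet RNA, was the most abundant of the list with 248 UMIs in 42 of 49 barcodes against 204 UMIs in 95 of 1296, a 32.0-fold difference (26.5 to 38.7). Srgn, the granule proteoglycan that T cells also make, was 1.66-fold higher (1.42 to 1.93).

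The cytoskeletal and signalling lists behaved likewise, with 8 of 12 and 6 of 8 genes higher. Myl9, a myosin light chain of contractile cells, was 49.8-fold higher (34.5 to 72.8) and Parvb, an adaptor of integrin tails, 72.0-fold (39.0 to 140.02). Alox12, the platelet lipoxygenase, was 132-fold higher (75.0 to 247) and Gng11, a G-protein gamma subunit, 19.3-fold (14.9 to 24.9). Tbxa2r, the thromboxane receptor, was the exception with 7 UMIs against 431, a ratio of 0.43 (0.17 to 0.89). In the rest of the cytoskeletal list, Tln1, which links integrins to actin, and Bin2, a membrane-shaping protein of blood cells, had ratios of 1.23 (0.95 to 1.56) and 1.14 (0.91 to 1.40).

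Megakaryocyte transcription factors gave few UMIs. Of the 9 genes, 3 reached 20 UMIs and 1 was at least 2-fold higher. Fli1 and Runx1, which T cells also use, had ratios of 1.09 (0.85 to 1.37) and 1.30 (1.04 to 1.61), and Zfpm1, the cofactor of GATA factors, one of 2.43 (1.26 to 4.29). Gata1 and Nfe2, central regulators of platelet formation, stayed under 20 UMIs: Gata1 gave 4 UMIs in 4 of the 49 barcodes against 14 in 14 of 1296 (7.53-fold, 1.80 to 24.0), and Nfe2 gave 10 UMIs in 3 barcodes against 5 in 5 (52.7-fold, 16.4 to 196). Tal1, a blood-lineage factor, gave 6 UMIs in 5 barcodes against 1 (158-fold, 19.2 to 7269).

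T-cell genes were at like levels in CD3-positive barcodes with and without much platelet RNA. The 16 T-cell genes together took 61.9 UMIs per 10000 (58.9 to 65.0) against 62.8 (62.2 to 63.4), and none of the 16 was 2-fold apart in either direction. The naive T-cell list, which includes Tcf7, Lef1 and Ccr7, took 50.5 (47.8 to 53.3) against 52.4 (51.8 to 52.9), and again none of 7 was 2-fold apart. The CD8 chains Cd8a and Cd8b1 took 8.41 (7.33 to 9.60) against 10.7 (10.4 to 10.9), and Cd8a alone had a ratio of 0.67 (0.49 to 0.89). CD8 RNA without Cd4 was detected in 17 of 34 clonotyped platelet RNA barcodes (50%, 32.4% to 67.6%) and in 502 of 920 other clonotyped barcodes (54.6%, 51.3% to 57.8%). For Cd4 without CD8 the numbers were 14 of 34 (41.2%, 24.6% to 59.3%) and 249 of 920 (27.1%, 24.2% to 30.1%). Cd4 and CD8 RNA were found together in none of the 34 and in 37 of the 920 (4.02%). After thinning to 1331 UMIs, Cd4 was found in 23.5% of the 34 and 17.2% of the 920, and CD8 RNA in 41.2% and 50.2%. In other called barcodes without CD3, the thinned shares were 5.60% for Cd4 and 10.8% for CD8 RNA.

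In the list of activated or effector T-cell genes, 4 of 12 were at least 2-fold lower and none higher, where 6.67% of all genes were lower. With clonotyped barcodes alone, 3 of 12 were lower. The granzymes Gzma and Gzmb, proteases of cytotoxic granules, gave no UMI in the 49 barcodes against 431 and 178 UMIs in the others, so that Gzma was at least 5.45-fold lower and Gzmb at least 2.25-fold lower. Gzmk, another granzyme, gave 5 UMIs in 3 barcodes against 518 in 93 (ratio 0.25, 0.08 to 0.60). The fourth, Tigit, an inhibitory receptor, gave 4 UMIs in 3 barcodes against 219 in 100 (ratio 0.48, 0.13 to 1.25), with an interval that includes 1. Of the genes that were not 2-fold apart, Ccl5, a chemokine of memory and cytotoxic T cells, gave 38.6 against 33.7 UMIs per 10000 and Nkg7, a cytotoxic granule protein, 7.25 against 7.13. Gzma and Gzmb were uncommon outside as well, in 37 and 62 of the 1296 other barcodes. No gene of the 9 immediate early genes, which rise within minutes of cell activation, was 2-fold apart. Jun and Nr4a1 were at 0 UMIs against 92 and 25, so that their ratios are limits. With clonotyped barcodes alone, 1 of the 9 was higher, where 7.46% of all genes were. It was Fos, with 4 UMIs in 2 of 34 barcodes and a ratio of 2.20. In the list of leukocyte genes that meet platelet partners, Selplg, which encodes PSGL-1, had a ratio of 0.92 (0.78 to 1.09) and Cd226, an adhesion molecule that platelets carry too, one of 1.65 (1.31 to 2.05). None of the 6 genes measured there was 2-fold apart.

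Lyz2, the lysozyme of macrophages and neutrophils, was 26.3-fold higher (16.4 to 42.4), with 38 UMIs in 23 of 49 barcodes against 38 UMIs in 22 of 1296. It was also present in 16 of 34 clonotyped platelet RNA barcodes against 14 of 920 (3 and 6 after thinning to 1331 UMIs). Each barcode held at most 5 Lyz2 UMIs. The other markers of these cells did not follow. Of the 6 monocyte markers, Csf1r, Cd14 and Fn1 were at 0, and all 7 neutrophil markers were at 0 in the 49 barcodes. The summed monocyte list, which includes Lyz2, gave 2.16 UMIs per 10000 against 0.857. Of its 3 measured genes, only Lyz2 was at least 2-fold higher. The part of such cells in the Lyz2 level was not tested.

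By the rule for named genes, the 10 highest ratios in this comparison were those of Slc6a4, Tubb1, Itga2b, Cald1, Alox12, Tmem40, Mpig6b, Thbs1, Gp5 and Ppbp, from 263-fold to 96.0-fold. Itga2b and Ppbp belong to the rule, which set their ratios. Some lie outside the gene lists. Slc6a4 is the serotonin transporter by which platelets take up serotonin (20 UMIs in 10 barcodes against 2 UMIs, 263-fold, 64.0 to 2324). Mpig6b is an inhibitory receptor of platelets (112-fold, 36.5 to 457). The 10 lowest, Cd74, Ifit3, Rad54l2, Lef1os1, Traf2, Ifih1, Gm49359, Prmt5, Zkscan1 and Tmem222, each rested on 1 UMI in 1 platelet RNA barcode. Genes at 0 UMIs were ranked by the limit of 3 counts, which places genes such as Gzma and the neutrophil genes S100a8 and S100a9 above these although they had fewer UMIs. The ratio of Cd74, the invariant chain of MHC class II, was 0.033 (0.00083 to 0.18), and the other 9 lay between 0.12 and 0.15.

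The erythroid ratios rested on 1 barcode. All 7 erythroid genes with enough UMIs were at least 2-fold higher, and the summed erythroid list gave 140 UMIs per 10000 against 8.56. Of its 3629 UMIs, 3595 lay in a single barcode with 4327 UMIs, 241 genes, 10 rule-gene UMIs and 1 CD3 UMI. Without that barcode, while haemoglobin-rich barcodes stayed in the other group, the ratio of the haemoglobin gene Hba-a1 went from 16.1 to 0.52 and that of Hbb-bs from 17.8 to 0.0082, while 26 of the 37 platelet genes were higher as before. With clonotyped barcodes alone, Hba-a1 gave 6 UMIs against 14 and a ratio of 11.5. In that comparison 20 of 32 platelet genes were at least 2-fold higher and 1 was lower, with a median ratio of 2.86, where 7.46% of all genes were higher and 6.81% lower.

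**Figure D2:**
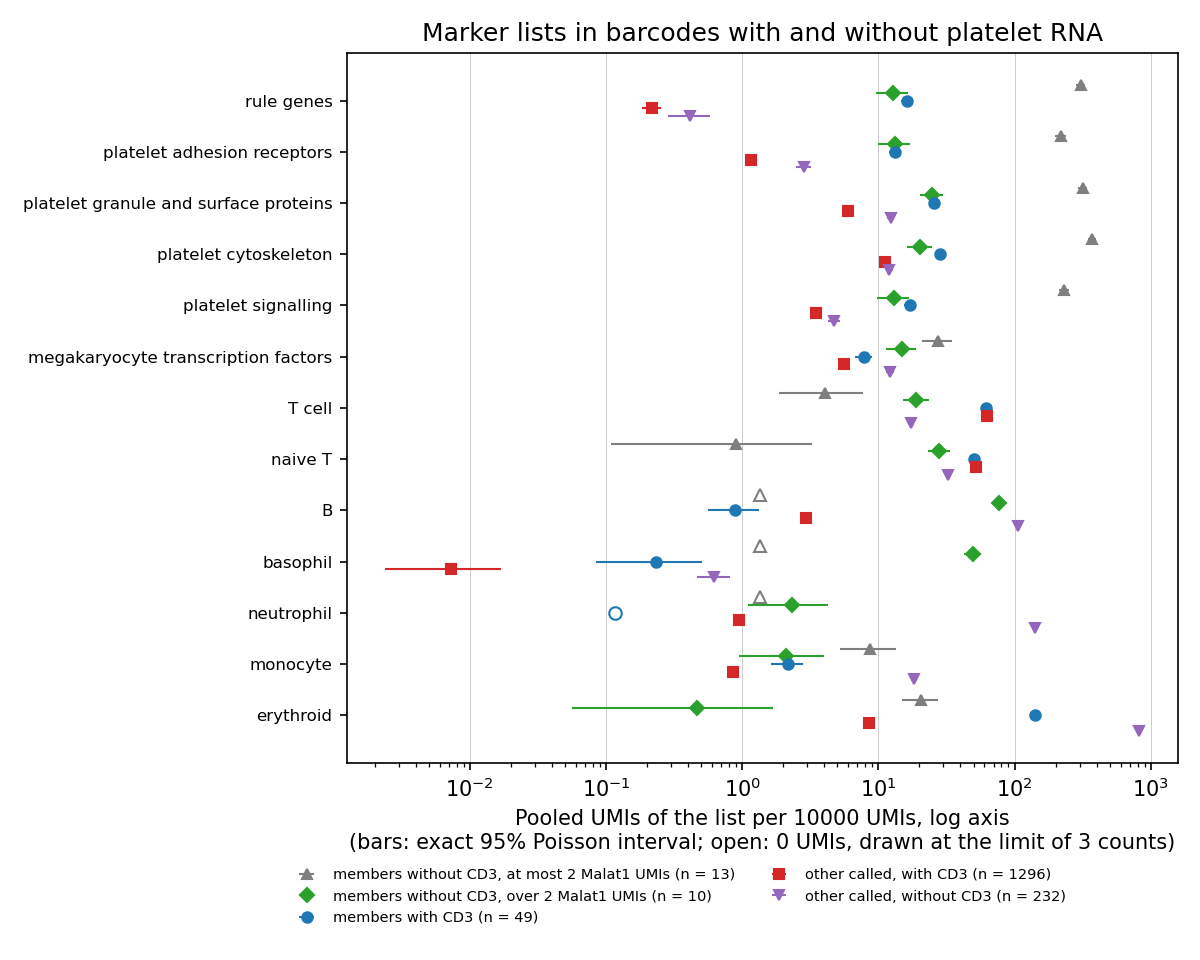
Summed UMIs of 13 marker lists per 10000 UMIs (log axis) in 3 groups of platelet RNA barcodes and 2 groups of other called barcodes, with exact 95% Poisson intervals as bars and open symbols for lists at 0, drawn at the limit that 3 counts set. The 13 barcodes without CD3 and with at most 2 Malat1 UMIs stand alone at the right of every platelet list, and the 49 barcodes with CD3 sit on the other CD3-positive barcodes in the T cell and naive T lists.

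The barcodes without CD3 were of 2 kinds, which Malat1 set apart. Malat1 is a long non-coding RNA that stays in the nucleus. Among all 72 platelet RNA barcodes, 15 held at most 2 Malat1 UMIs, 13 of them none at all, and the other 57 held at least 15. The gap was noticed in these data, so the groups on its sides are described without a test. Of the 15, 13 had no CD3. The other 10 barcodes without CD3 held 24 to 114 Malat1 UMIs.

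**Figure D3:**
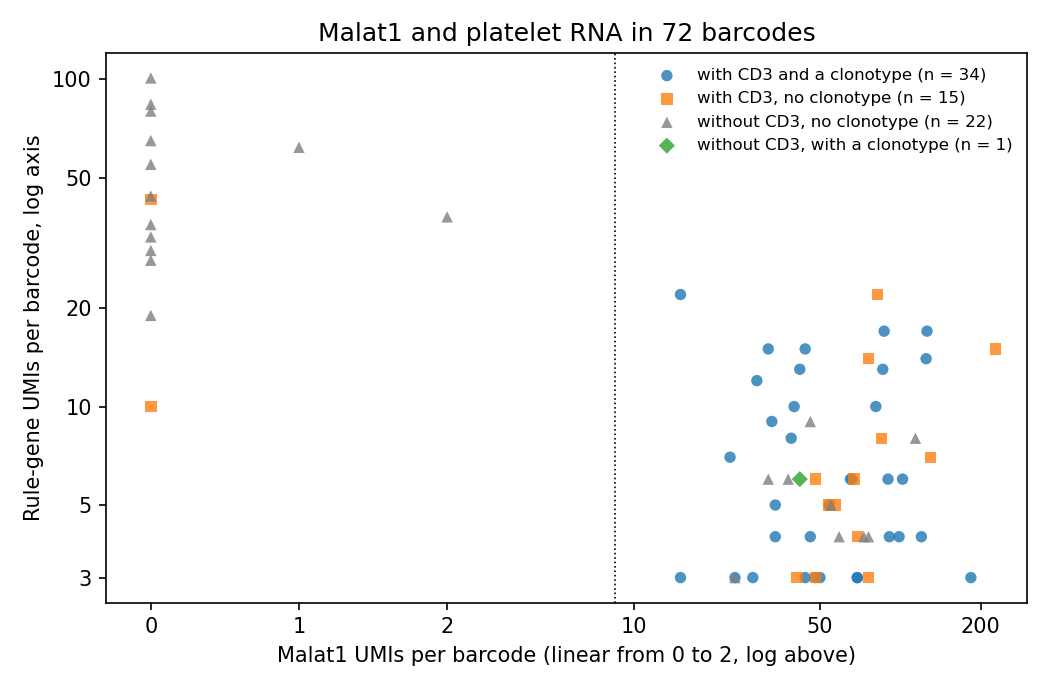
Malat1 UMIs (linear from 0 to 2 and logarithmic above) against rule-gene UMIs (log axis) in each of the 72 platelet RNA barcodes, marked by CD3 and by a clonotype, with a dotted line drawn in the gap between 2 and 15 Malat1 UMIs. Left of it lie 13 barcodes without CD3 at 19 to 101 rule-gene UMIs and 2 with CD3, and right of it no barcode exceeds 22.

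The 13 Malat1-poor barcodes without CD3 held platelet genes at a high share of their RNA. Their totals ranged from 1354 to 2198 UMIs (median 1639) over 542 to 765 genes, just above the limit for a called barcode. Rule genes gave 19 to 101 UMIs per barcode (median 44). Pf4 was present in all 13 at 10 to 46 UMIs, Ppbp in all 13 at 3 to 44, Itga2b in all 13 at 1 to 18 and Gp9 in 11 at up to 8. Outside the rule, Tubb1 (2 to 39 UMIs), Clec1b (4 to 21) and Nrgn (10 to 32) were each present in all 13. The 58 platelet genes outside the rule took 804 to 1531 UMIs per 10000 in each of them, with a pooled level of 1164 (1120 to 1210).

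Most markers of other cells were absent from these 13, apart from erythroid genes and Lyz2. B-cell, basophil, neutrophil, NK-cell, CD4 and CD8 lists were at 0 UMIs of 22070, which allows up to 1.36 UMIs per 10000 for each. Of the 16 T-cell genes 13 were at 0, with 9 UMIs in all, 7 of them Lat, a signalling adaptor that platelets use as well. Lyz2 gave 19 UMIs in 8 barcodes with the other 5 monocyte markers at 0. The erythroid list gave 45 UMIs, or 20.4 per 10000 (14.9 to 27.3) against 8.56 in other CD3-positive barcodes. At least 3 erythroid UMIs were found in 10 of the 13, with a median of 4 and at most 6, and at least 3 monocyte UMIs in 3. The part of red cell RNA in these barcodes was not tested. Ribosomal protein genes took 1.28% of UMIs and mitochondrial genes 0.521%, against 23.9% and 1.84% in other CD3-positive barcodes. None of the 13 had a clonotype, where 3 counts would allow up to 23.1%, although 4 held a productive TCR contig of 1 UMI. Among all 23 without CD3, 8 held a productive contig. A barcode with CD3 was much like them: it held 43 rule-gene UMIs, 26 of Tubb1, 1108 outside-rule UMIs per 10000 and no Malat1, with 1 CD3 UMI and no clonotype.

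The other 10 barcodes without CD3 held 3 to 9 rule-gene UMIs and RNA of several cell types. The pooled level of platelet genes outside the rule was 85.8 UMIs per 10000 (77.3 to 95.04), against 92.1 in the CD3-positive ones. Platelet-restricted receptors gave few UMIs, with Clec1b at 0.464 (0.0562 to 1.68) against 2.85 per 10000 and Gp1bb at 0.232 (0.00587 to 1.29) against 0.926. With CD3, 28 of the 74 Clec1b UMIs lay in 1 barcode. Gp5 stood at 0.696 (0.144 to 2.03) against 0.849 and Gp1ba at 0.232 (0.00587 to 1.29) against 0.270. Gp6 gave 0 UMIs, and its limit of 0.696 lay above the 0.463 with CD3, so a lower level could not be read. Cd9, a tetraspanin of many cells, gave 38 UMIs, or 8.82 against 6.29 per 10000. A pair of barcodes carried B-cell RNA, with 171 and 151 UMIs of B-cell markers. The first held 3 Pf4 UMIs and no other rule gene, and the second held 9 rule-gene UMIs of all 4 genes. Another held 7 B-cell UMIs. T-cell genes other than CD3 were found at 3 UMIs or more in 6 of the 10, and 1 of these had a clonotype.

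In 3 of the 10 the platelet label did not hold. They held basophil markers at 165, 44 and 3 UMIs, and their 4, 6 and 4 rule-gene UMIs were all Itga2b, with Pf4, Ppbp, Gp9, Tubb1, Gp1bb and Clec1b at 0, although the first also held 5 Nrgn UMIs. A CD3-positive barcode with 5 basophil UMIs and 4 Itga2b UMIs showed the same pattern. These 4 were the only platelet RNA barcodes with Itga2b as the sole rule gene and the only ones with at least 3 basophil UMIs. Itga2b is therefore reported for them as such and not as a platelet marker. A further 5 barcodes, 4 of them with CD3, held Pf4 alone, with Tubb1 at 0. By contrast, 49 barcodes held at least 3 of the 4 rule genes and 30 held all 4.

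The comparison of barcodes without CD3 inside and outside the platelet RNA set covered 6338 genes. Of 39 measured platelet genes outside the rule, 36 were at least 2-fold higher and 1 was lower, where 11.1% of all genes were higher and 20.8% lower. As before, genes that reached 20 UMIs through the barcodes in which they are high favour such a count. The highest ratios belonged to Alox12, Tubb1, Ppbp, Treml1, Rbpms2, Thbs1, Clec1b, Fhl1, Gp1bb and Pf4, of which the rule set those of Ppbp and Pf4. Thbs1 gave 95 UMIs in 13 of 23 barcodes and none in 232, at least 399-fold higher, and Vwf, the adhesion protein that Gp1ba binds, gave 26 UMIs and none, at least 109-fold higher. Alox12 gave 100 UMIs against 1 (1261-fold, 221 to 50281). The collagen receptor Gp6 (28 against 0 UMIs) was at least 118-fold higher. Cd226 was 6.01-fold higher (4.37 to 8.20), the only gene of 6 leukocyte partners that was 2-fold apart.

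The lowest ratios in that comparison were those of Hbb-bt, Hbb-bs, Hba-a2, S100a9, S100a8, Hba-a1, Retnlg, Ccl5, Gzma and S100a6. Among the 232 other barcodes, 21 held at least 3 erythroid UMIs, 22 at least 3 neutrophil UMIs and 89 at least 3 B-cell UMIs. Hbb-bs gave 7 UMIs against 40918 and S100a9, a calcium-binding protein of neutrophils, none against 5200. The basophil genes ran the other way, with 4 of 4 measured genes higher, resting on the 3 barcodes described. Prss34, a basophil protease, gave 81 UMIs in 1 barcode.

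Within the platelet RNA barcodes, those without CD3 had higher pooled platelet gene levels than those with CD3, a difference carried by the 13 Malat1-poor barcodes. The other 10 without CD3 gave 85.8 outside-rule UMIs per 10000 against 92.1 with CD3, and 2.09 (0.95 to 3.96) Tubb1 UMIs per 10000 against 3.70 (2.999 to 4.52). Of 2914 genes with enough UMIs, 14.9% were at least 2-fold higher without CD3 and 25.7% at least 2-fold lower. Of 40 platelet genes outside the rule, 38 were higher and none lower, with a median ratio of 5.42 against 0.81 for all genes, again a description for the same reason. Tubb1 stood at 38.7 UMIs per 10000 without CD3 against 3.70 with it (10.4-fold, 8.22 to 13.4), Nfe2 at 6.29 against 0.386 (16.3-fold, 8.03 to 36.5) and Nrgn at 46.3 against 9.57 (4.84-fold, 4.08 to 5.75). These are shares of each barcode's RNA and not amounts per platelet. Per barcode, platelet genes outside the rule gave 125 to 276 UMIs in the 13 Malat1-poor barcodes and 18 to 124 in the 34 clonotyped ones. These 2 ranges lay next to each other without overlap, with total UMIs of 1354 to 2198 and 1738 to 14061. The 15 with CD3 and no clonotype gave 4 to 248, which overlaps the range of the Malat1-poor barcodes. The 13 of these 15 with over 2 Malat1 UMIs gave 4 to 73.

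The T-cell list was lower without CD3 in 13 of 16 genes, of which the 3 CD3 genes were fixed by the split. The 10 highest ratios, those of Cd74, Ccl6, Ccl9, Ebf1, H2-Aa, Cyp4f18, Cd79a, Ms4a2, Csf2rb and Csf2rb2, were genes found in 3 or 4 barcodes without CD3. They include the B-cell genes Cd79a (44 UMIs against 0, at least 58.3-fold higher) and Ebf1 (28 against 1, 111-fold, 18.4 to 4554) and the basophil receptor chain Ms4a2 (25 against 2, 49.7-fold, 12.4 to 433). The 10 lowest were Ccl5, Hba-a2, Nkg7, AW112010, Ly6c2, Cd3e, Slfn1, Igfbp4, Cd3d and S100a6. Ccl5 gave 3 UMIs against 1002 (ratio 0.012, 0.0025 to 0.035).

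The 15 platelet RNA barcodes with CD3 and no clonotype differed from the 34 with one in more than the TCR. They held 1 to 6 CD3 UMIs (median 2) against 1 to 33 (median 13), and 2.72% of their UMIs came from ribosomal protein genes, against 22.5%. Every one of the 15 was under 10% ribosomal protein RNA, as were 6 of the 34. The Malat1-poor barcode with CD3 and the one rich in haemoglobin RNA are among the 15, and the other 13 held 41 to 228 Malat1 UMIs and 3 to 22 rule-gene UMIs. The direction was the same outside the platelet RNA barcodes, with a smaller ratio between the shares, at 9.53% in 376 CD3-positive barcodes without a clonotype and 27.1% in 920 with one.

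Most platelet RNA of the library lay in barcodes with fewer UMIs than the limit. Of 27007 rule-gene UMIs in the matrix, 1147 (4.25%) were in the 72 barcodes and 95.1% were in barcodes under 1331 UMIs. Among barcodes of 201 to 500 UMIs, 1096 of 1545 (70.9%, 68.6% to 73.2%) held at least 3 rule-gene UMIs, and of 501 to 1330 UMIs, 246 of 347 (70.9%, 65.8% to 75.6%) did. The share was 5.67% (3.80% to 8.09%) from 1331 to 2999 UMIs, 4.05% (2.68% to 5.84%) from 3000 to 5999 and 3.87% (2.27% to 6.13%) from 6000 upwards. The intervals of these 3 bands overlapped.

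**Figure D4:**
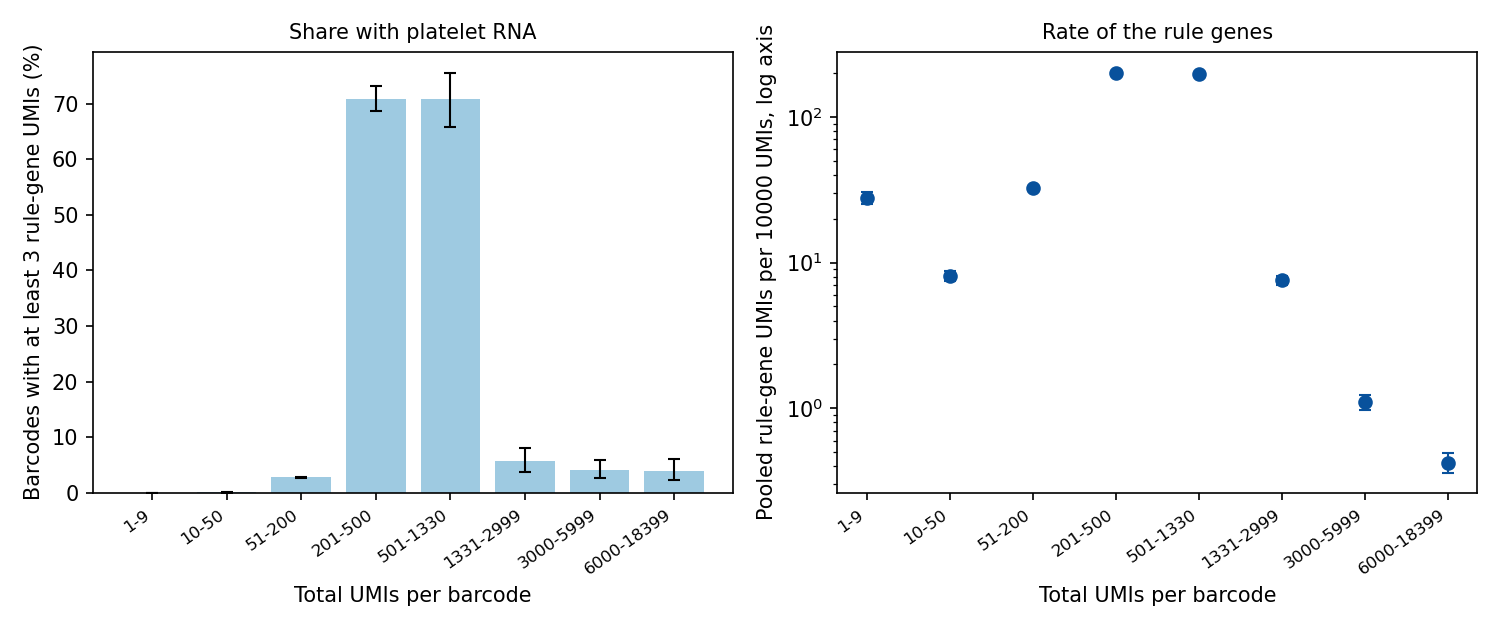
Share of barcodes with at least 3 rule-gene UMIs (left, percent, bars with exact 95% binomial intervals) and pooled rule-gene UMIs per 10000 UMIs (right, log axis, exact 95% Poisson intervals, mostly smaller than the symbols) in 8 bands of total UMIs. Both peak between 201 and 1330 UMIs, where 70.9% of barcodes in each band held platelet RNA.

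Across the limit the platelet RNA barcodes continued those below it. The 10 barcodes of fewest UMIs above the limit (1354 to 1738) held a median of 35.5 rule-gene UMIs and 1001 outside-rule UMIs per 10000, and 1 of them had CD3. The 10 of most UMIs below it with at least 3 rule-gene UMIs (1146 to 1329) held a median of 37.5 and 1205 per 10000, and 3 had CD3. In the 246 barcodes between 501 and 1330 UMIs, Tubb1 was found in 234, CD3 in 29 and a clonotype in none. Their outside-rule level of 1194 per 10000 (1178 to 1210) was close to the 1164 of the 13 Malat1-poor barcodes.

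The mixture of the 4 rule genes was not the same in all barcodes. Since these genes chose the called barcodes, their shares are a description. In barcodes of 1 to 9 UMIs, Pf4 made up 44.7% (40.3% to 49.2%) of the rule-gene UMIs and Itga2b 8.94% (6.57% to 11.8%). In barcodes of 10 to 50 UMIs, Pf4 made up 63.8% (60.0% to 67.4%) and Itga2b 1.78% (0.92% to 3.08%), so that the barcodes of fewest UMIs did not share 1 profile. Between 201 and 500 UMIs the shares were 35.04% (34.1% to 36.04%) and 18.4% (17.7% to 19.3%). Clonotyped platelet RNA barcodes had 34.6% Pf4 (28.9% to 40.7%) and 17.5% Itga2b (13.1% to 22.6%). In the 13 Malat1-poor barcodes Pf4 took 40.3% (36.6% to 44.1%), Ppbp 40.1% (36.4% to 44.0%), Itga2b 13.2% (10.7% to 15.97%) and Gp9 6.37% (4.65% to 8.49%). The share of Gp9 was 18.3% (13.8% to 23.5%) in the clonotyped barcodes.

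**Figure D5:**
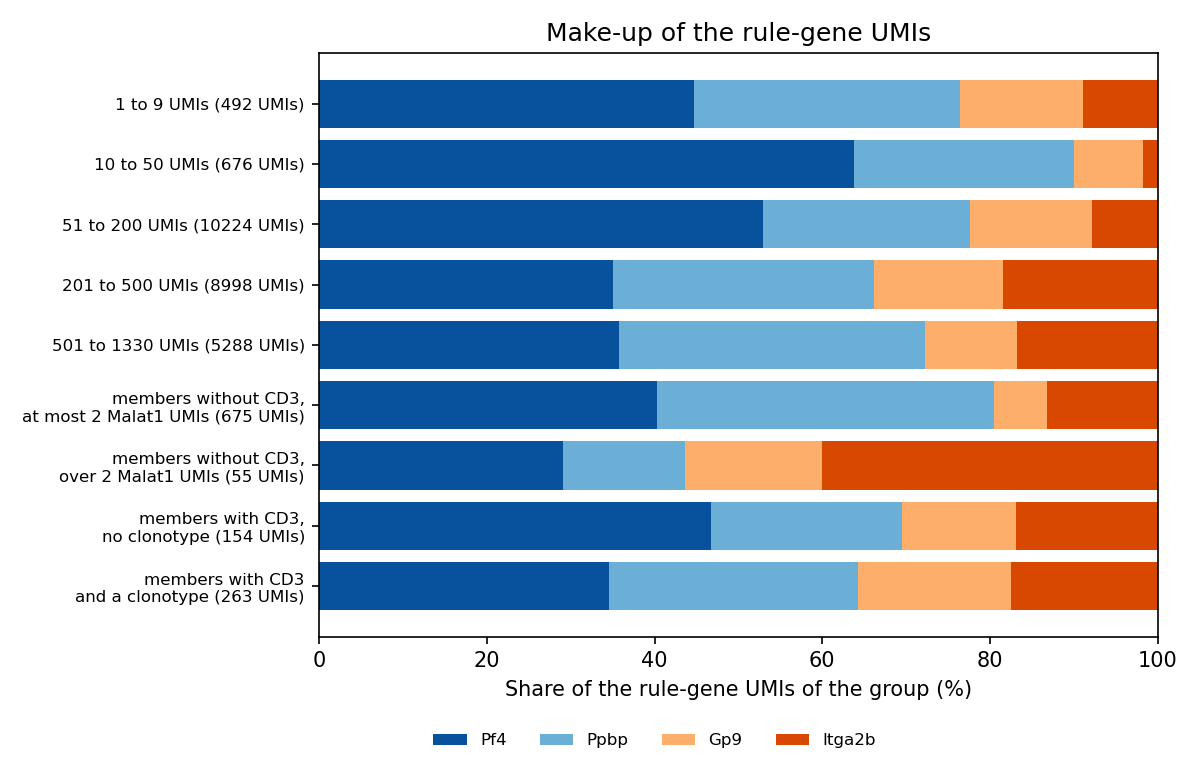
Shares of Pf4, Ppbp, Gp9 and Itga2b among the rule-gene UMIs (percent, adding to 100 in each bar) in 5 bands of barcodes under the limit and in 4 groups of platelet RNA barcodes, with the UMIs behind each bar in parentheses. Itga2b is at 8.94% from 1 to 9 UMIs, 1.78% from 10 to 50 and 18.4% from 201 to 500 UMIs, and stands at 17.5% in the clonotyped barcodes.

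Tubb1, which the rule did not use, varied as well. Of the UMIs of Tubb1 and the rule genes together, Tubb1 took 8.38% (6.18% to 11.1%) in barcodes of 1 to 9 UMIs, 3.01% (1.87% to 4.57%) from 10 to 50, 16.4% (15.7% to 17.1%) from 201 to 500, 17.6% (13.5% to 22.2%) in clonotyped platelet RNA barcodes and 26.5% (23.6% to 29.5%) in the 13 Malat1-poor ones. In the other called barcodes with CD3, which hold at most 2 rule-gene UMIs each, it took 8.07% (4.37% to 13.4%), with Pf4 at 50.7% (42.3% to 59.0%) and Itga2b at 8.78% (4.76% to 14.6%) of the rule-gene UMIs. Rule genes gave 27.7 UMIs per 10000 in barcodes of 1 to 9 UMIs and 8.11 in those of 10 to 50, and platelet genes outside the rule 114 and 38.0. The part of such free RNA in called barcodes with 3 to 5 rule-gene UMIs was not tested.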

How the data were processed

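Gene expression and TCR libraries from the blood of 1 mouse given vehicle were analysed. The authors aligned and counted the reads with Cell Ranger (version 4 per the file headers, build GRCm38 per the labels' processing notes) and deposited an unfiltered matrix of raw UMI counts with a table of TCR contigs and clonotypes, whose assembly version was not given in the sources used here. The matrix held 12855001 UMIs over 32285 genes and 300213 barcodes, of which 184186 had a UMI. Called barcodes held at least 0.1 of the 99th percentile of the 3000 largest, which is 1331 UMIs, and 1354 to 14061 in the 72 described.

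UMIs were pooled over barcodes and given per 10000, with exact Poisson and Clopper-Pearson 95% intervals, and a count of 0 was read as a limit of 3. Ratios were computed for genes with at least 20 UMIs in both groups together. The genes named were taken from the 164 genes of 21 lists and, in each of 3 comparisons, the 10 highest and 10 lowest ratios among genes found in at least 3 barcodes of the higher group, without TCR, immunoglobulin, mitochondrial and ribosomal protein genes. The members, lists and comparisons were chosen with earlier results of these data known. Thinning drew 1331 UMIs per barcode with a fixed seed. Predicted doublets were kept. Python 3.11.15, numpy 2.4.6, scipy 1.17.1, pandas 2.3.3, matplotlib 3.10.9 and Scanpy 1.11.5 (Scrublet) were used, and the ratios were tested on simulated counts. Alternatives were other limits on rule-gene and total UMIs, other gene filters and scalings, subtraction of 5% free RNA with the profile of barcodes of 10 to 50 UMIs, thinning and removal of predicted doublets. Added after the data were seen were leaving out the haemoglobin-rich barcode, a free RNA profile from barcodes of 1 to 9 UMIs, keeping clonotyped barcodes only, and keeping those of at most 2 Malat1 UMIs without CD3 or of more with CD3. Protein sequences were not used here, and single-gene values of some list members are not reported here.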

Additional observations from a re-analysis of the deposited data

How the results depend on the processing

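Of 80 alternatives computed, 49 stayed within the interval of the value, or within 1.5 times for a count or ratio, 29 moved and 2 changed direction. The latter were the ratios of Hba-a1 and Hbb-bs with CD3, which went from 16.1 to 0.52 and from 17.8 to 0.0082 without the haemoglobin-rich barcode. With clonotyped barcodes only, which leave it out as well, Hba-a1 was 11.5-fold higher. The number of platelet RNA barcodes was 109 with at least 2 rule-gene UMIs, 29 with at least 10, 39 after thinning to 1331 UMIs and 318 with a limit of 500 total UMIs. With that limit the clonotype share with CD3 went from 69.4% to 43.6%, and without CD3 it was 0% with at least 10 rule-gene UMIs and with a limit of 2000 total UMIs. Platelet genes outside the rule, at 92.1 UMIs per 10000 with CD3, gave 71.7, 128 and 161 with at least 2, 5 and 10 rule-gene UMIs and 120.2 as a mean over barcodes, and 83.7 in the 47 barcodes of over 2 Malat1 UMIs, chosen after seeing the data. Without CD3, at 451, they gave 385, 619, 1164 and 702, and 473 after subtracting 5% free RNA, or 469 with the profile of barcodes of 1 to 9 UMIs, chosen after seeing the data. With a filter of 50 or 10 UMIs per gene in place of 20, the number of higher genes was 376 or 1035 in place of 685 with CD3 against other barcodes with CD3, 330 or 1083 in place of 706 without CD3, and 167 or 792 in place of 434 without against with CD3. The lower genes in the last were 227 or 1287 in place of 750, and with 50 UMIs those in the comparison without CD3 were 856 in place of 1318. The higher genes with CD3 were 1097 with at least 5 rule-gene UMIs, and the lower genes without CD3 were 557 with the 13 Malat1-poor barcodes only, an alternative chosen after seeing the data. Fewer or more genes tested, or fewer barcodes, accompany these counts, and the cause of the other shifts was not tested.

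No paired analysis was possible because there was 1 sample. With 1 mouse and 1 library, differences cannot be set against the spread between animals, and intervals cover counting error in UMIs and barcodes alone. The 23 barcodes without CD3 and the 15 with CD3 and no clonotype are small groups, so that single barcodes decide some ratios, as for haemoglobin, basophil and B-cell genes. Most platelet RNA lay under the limit for a called barcode.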
